A study of Homo sapiens with 6 samples.

Results

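The mitochondrial ribosomal protein genes encode the proteins of the ribosome inside mitochondria. They were chosen by symbol alone: MRPL for the large subunit or MRPS for the small subunit, then a number and at most 1 letter of A, B or C. The count files hold 76 such genes (47 MRPL and 29 MRPS) among 56638 listed genes, and 75 of them had enough reads to be tested. Their levels were compared between colorectal cancer cells transfected with siRNA against GLCC1 and cells transfected with a non-specific control siRNA.

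RNA sequencing covered 6 libraries, 3 labelled control siRNA and 3 labelled GLCC1 siRNA. GLCC1, named lncRNA-AF339830 in the labels, is a long non-coding RNA, and the comparison asks how the transcriptome of the cells differs after its knockdown. The labels name the cells SW480, whereas the methods of the study name DLD-1. Both are human colorectal carcinoma lines without further genetic change here. The titles number the libraries of each group siRNA1 to siRNA3, whereas the genotype field reads siRNA1 in every library, controls included. The title numbers were taken as replicate numbers, and whether they stand for different siRNA sequences is not stated. No label says that the 3 libraries of a group came from separate cultures, so that p-values measure the spread between these libraries, which may be technical. Groups were taken from titles, source names and genotypes. The library names attach the opposite siRNA to each group, and exchanging the groups would turn the sign of every fold change given here and leave its p-value as it is. GLCC1 itself was not analysed here, so the labels were not checked on the targeted RNA. Of the 399 bases of the GLCC1 sequence supplied with the study, an unbroken run of 382 matches chromosome 13 inside FARP1, on the same strand (GRCh37). FARP1 measured 109, 110 and 113 CPM (counts scaled to library size, adjusted by TMM factors) in the controls and 63.2, 65.6 and 65.4 CPM with GLCC1 siRNA, a log2 fold change of -0.77 ± 0.08 (SE; edgeR adjusted p = 9.2e-06). Whether an siRNA against GLCC1 also acts on the FARP1 transcript was not tested, so this value does not settle which group is which.

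Libraries held 11948790 to 19042516 read pairs assigned to genes, the fewest in GLCC1 siRNA replicate 2. That library stood apart from the other libraries of its group, with a chi-square per degree of freedom of 16.3 and 17.1 against them, whereas the other same-group pairs lay between 1.84 and 3.84. Of 11 colorectal epithelial markers, 7 were called lower with GLCC1 siRNA, and their summed level was 5932 ± 272 CPM in the controls and 2499 ± 221 CPM with GLCC1 siRNA (SD, n = 3 each). The share called lower was 63.6%, beside 29.8% of all genes averaging 10 CPM or more. The keratins KRT8, KRT18 and KRT19 made up most of that sum. VIL1 went the other way, from 205 ± 6.53 to 237 ± 16.9 CPM (SD, n = 3 each), and was not called (edgeR adjusted p = 0.067). CDX2 was not called either, nor were KRT20 and CEACAM5, which averaged only 0.504 and 0.248 CPM. Markers of blood, stromal and endothelial cells summed to between 12.5 and 16.0 CPM in the controls and between 7.0 and 9.79 CPM with GLCC1 siRNA, of which COL1A1 held most, whereas PTPRC, COL1A2, DCN and PECAM1 were at 0 counts in every library. The part of these differences in the results below was not tested.

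Human mitochondria keep a small genome that encodes subunits of the respiratory chain and the ATP synthase, together with the RNAs needed to translate them. The proteins of the mitochondrial ribosome are all encoded in the nucleus, made in the cytosol and imported, and they assemble with the mitochondrial rRNAs into a small subunit, which reads the mRNA, and a large subunit, which forms peptide bonds. Many have bacterial relatives, whereas others arose later and coat the outside of the particle. Promoters of such genes often carry binding sequences of ETS factors such as GABPA, of YY1 and of NRF1.

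The sequences around the start sites of the genes were therefore read first. RefSeq promoters of GRCh38.p14, running from 250 bases before to 50 bases after the start site, were matched by symbol for 67 of the 76 genes. MRPL2, MRPL10, MRPL13, MRPL15, MRPL21, MRPL23, MRPL35, MRPS28 and MRPS36 were not matched. The word CCGGAAG, read by ETS factors, lay on either strand in 28 of the 67 promoters (41.8%), beside 10.7% of all 27305 promoters and 21.3% of those of genes averaging 10 CPM or more. The YY1 word AAGATGGC lay in 20 (29.9%), beside 3.03% and 6.18%. At least 1 of the words was found in 40 promoters (59.7%, beside 13.1% and 26.0%), both were found in 8, and in none did they overlap. Of the 21 YY1 words, 17 were on the strand of the gene and 15 lay after the start site. These are matches of letters, not measured binding.

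The windows of 30 bases below hold the YY1 word, in capitals, in genes that were called lower or, for MRPL22, higher. They are written 5′ to 3′ on the strand of the gene, in GRCh38.p14 coordinates, and show the word in genes that differed in their calls.
MRPL50, chr9:101398577-101398606, minus strand: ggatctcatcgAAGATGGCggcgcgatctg
MRPL42, chr12:93467511-93467540, plus strand: aggattgaaacAAGATGGCgggttcgtggt
MRPS18B, chr6:30617852-30617881, plus strand: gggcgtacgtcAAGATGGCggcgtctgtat
MRPS18A, chr6:43687764-43687793, minus strand: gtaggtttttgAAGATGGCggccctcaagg
MRPS27, chr5:72320206-72320235, minus strand: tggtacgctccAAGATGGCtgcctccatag
MRPS7, chr17:75261887-75261916, plus strand: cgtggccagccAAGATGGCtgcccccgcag
MRPL22, chr5:154941093-154941122, plus strand: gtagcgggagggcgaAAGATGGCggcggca

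The ETS word stands in capitals in the next windows, read as CCGGAAG or, from the other strand, CTTCCGG. These genes include some of the most abundant and most changed, and MRPS18A carries both words.
MRPL3, chr3:131502985-131503014, minus strand: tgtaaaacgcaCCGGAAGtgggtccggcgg
MRPS18A, chr6:43687804-43687833, minus strand: ggcgctacgttCCGGAAGcggaaatggacg
MRPL27, chr17:50373174-50373203, minus strand: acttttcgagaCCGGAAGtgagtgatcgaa
MRPL48, chr11:73787800-73787829, plus strand: aatttcagaagCTTCCGGaactaaaatgat
MRPS23, chr17:57850040-57850069, minus strand: tggagcagccgCTTCCGGttccggtagcag
MRPL20, chr1:1407296-1407325, minus strand: caggggctgacCCGGAAGcgctcgtgacca

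A part of the mitochondrial ribosomal protein genes was at a lower level in the libraries labelled GLCC1 siRNA, mostly by a small amount. With edgeR's quasi-likelihood test and Benjamini-Hochberg adjustment over all 23074 genes tested, 32 of the 75 genes were called lower at an adjusted p under 0.05 (42.7%) and 3 were called higher (4.0%). Among all genes tested, 16.7% were called lower and 14.9% higher. Since abundant genes are called more often, the nearer background is that of the 10378 genes averaging 10 CPM or more, of which 29.8% were called lower and 20.1% higher, beside 32 lower (46.4%) and 2 higher (2.9%) of the 69 members at that level. The remaining 40 genes were not called, which does not show that they were equal. The log2 fold change (GLCC1 siRNA minus control) was negative for 63 genes and positive for 12, and among genes of at least 10 CPM for 58 and 11 of the members beside 5832 and 4546 of all genes. Its median was -0.23, beside 0.028 for all genes tested and -0.068 for genes of at least 10 CPM. In 4 genes the mean level fell to at most 49.9% of the control, namely MRPL50, MRPL11, MRPL44 and MRPL2. Such a fall, at least 2-fold, was estimated for 1658 of the 23074 genes tested. It was estimated for 357 of the 10378 genes averaging 10 CPM or more.

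The counts of calls depend on scaling and on single libraries. With library totals alone as the scale, which moved the median of all genes by 0.12, 21 genes were called lower and 9 higher, where 12.1% of all genes were lower, and the median of the members less that of all genes stayed at -0.26. Without GLCC1 siRNA replicate 2, 41 were called lower and 6 higher, where 22.6% of all genes were lower. Without 1 control library at a time, between 22 and 25 were called lower and 1 was called higher, where 12.5% to 13.6% of all genes were lower. These shares cover all genes tested, for which the main fit gave 16.7%. The nearer background of genes of at least 10 CPM, 29.8% in the main fit, is not given for the other settings. Neither is the share of genes called higher. Of the members, 21 were called lower whichever of the 6 libraries was left out. The matching count over all genes is not given, so this number has no background beside it.

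The levels were also compared for overlap between the groups. All 3 GLCC1 siRNA libraries lay below all 3 control libraries for 43 of the 75 genes and above them for 8, and the groups overlapped for 24. The corresponding shares were 24.0% and 22.3% of all genes tested, and 37.8% and 26.2% of the genes of at least 10 CPM. An exact permutation test of 3 against 3 libraries cannot give a two-sided p below 0.1 for any single gene.

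Summed over the 76 genes, the level was 4463, 4376 and 4551 CPM in the control libraries and 3688, 3623 and 3676 CPM in the GLCC1 siRNA libraries. The sums did not overlap, and the GLCC1 siRNA mean was 82.1% of the control mean. Replicate 2 of GLCC1 siRNA was close to its group here, although it stood apart over all genes. The MRPS genes summed to 84.9% of the control and the MRPL genes to 80.3%. For comparison, the 77 cytosolic ribosomal protein genes summed to 76.2% of the control, and 58 of the 76 tested were called lower and none higher (median log2 fold change -0.41). In bulk RNA, fewer cells that make an mRNA and less mRNA per cell cannot be told apart.

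Both subunits gave similar counts. Of the 46 tested MRPL genes, 20 were called lower and 2 higher, with a median log2 fold change of -0.25. Of the 29 MRPS genes, 12 were called lower and 1 higher, with a median of -0.21. The MRPS count rests on single libraries, since it was 7 without control siRNA replicate 1 and again 7 without control siRNA replicate 3. Genes with a bacterial relative (20 lower and 1 higher of 47, median -0.21) and genes without (12 lower and 2 higher of 28, median -0.24) gave nearly equal shares. The difference between these classes was not tested. MRPS18A and MRPS30, in spite of their names, encode proteins of the large subunit, and MRPS36 encodes a protein now assigned to the 2-oxoglutarate dehydrogenase complex.

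MRPL50 fell the most. It encodes a large-subunit protein without a bacterial relative and lies at chr9:104149915-104160900 on the minus strand (GRCh37). Its level was 52.0, 55.3 and 56.8 CPM in the controls and 16.7, 22.7 and 16.8 CPM with GLCC1 siRNA, so that the lowest control was far above the highest knockdown library. The mean dropped to 34.0% of the control, a log2 fold change of -1.56 ± 0.12 (SE; edgeR adjusted p = 7.2e-07).

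MRPL11, at chr11:66202546-66206319 on the minus strand, encodes the protein at the base of the stalk, the flexible arm of the large subunit that recruits translation factors. It measured 77.5, 76.8 and 83.3 CPM in the controls and 36.7, 36.7 and 35.6 CPM with GLCC1 siRNA. The log2 fold change was -1.13 ± 0.09 (SE; edgeR adjusted p = 6.7e-07). The libraries of each group lay close together, and the drop far exceeded their spread. The partners of MRPL11 in the stalk did not pass the test. MRPL10 went from 63.7 ± 0.555 to 53.4 ± 5.52 CPM (SD, n = 3 each), a log2 fold change of -0.25 (edgeR adjusted p = 0.06), and was called lower only when GLCC1 siRNA replicate 2 was left out (edgeR adjusted p = 0.022). MRPL12, which also binds the mitochondrial RNA polymerase, was at 6.04 ± 0.236 and 4.85 ± 0.778 CPM (SD, n = 3 each; edgeR adjusted p = 0.18). Whether MRPL11 differed from MRPL10 and MRPL12 in its response was not tested.

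MRPL44 and MRPL2 dropped by nearly equal amounts. MRPL44 (chr2:224822180-224832431, plus strand) encodes a protein with the fold of a ribonuclease III that sits near the exit of the peptide tunnel. Its level was 61.0, 62.7 and 62.1 CPM in the controls and 31.9, 28.6 and 30.4 CPM with GLCC1 siRNA, a log2 fold change of -1.03 ± 0.09 (SE; edgeR adjusted p = 2e-06). MRPL2 (chr6:43021767-43027172, minus strand) encodes a protein close to the peptidyl transferase centre. It measured 42.7, 45.8 and 43.2 CPM in the controls and 23.1, 17.1 and 25.1 CPM with GLCC1 siRNA, a log2 fold change of -1.0 ± 0.13 (SE; edgeR adjusted p = 4.5e-05). For MRPL44 the libraries of each group lay close together, whereas for MRPL2 GLCC1 siRNA replicate 2 was lowest.

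Of the other genes at the exit of the peptide tunnel, MRPL23 was also called lower (73.9 ± 4.86 against 46.5 ± 4.67 CPM, SD, n = 3 each) and MRPL22 higher, whereas MRPL24, MRPL45 and MRPL47 were not called. The central protuberance is the part of the large subunit that touches the tRNAs and the small subunit. Of the 7 genes listed for it here, which need not be all of them, 5 were called lower (71.4%). Beside this stand 29.8% of all genes of at least 10 CPM. MRPL55 (chr1:228294386-228297000, minus strand) dropped most among them, from 37.5, 39.8 and 38.7 CPM to 22.6, 16.9 and 23.4 CPM, a log2 fold change of -0.88 ± 0.12 (SE; edgeR adjusted p = 8.7e-05). MRPL48 (chr11:73498919-73576178, plus strand) had 37.2, 34.6 and 36.4 CPM in the controls and 20.3, 25.7 and 19.6 CPM with GLCC1 siRNA, a log2 fold change of -0.73 ± 0.11 (SE; edgeR adjusted p = 0.00028). The groups did not overlap for either gene. MRPL18, MRPL27 and MRPL52 had log2 fold changes between -0.31 and -0.24. All 3 of them lost their calls whichever control library was left out. MRPL38 and MRPL46 were not called.

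In the small subunit, MRPS35 and MRPS23 dropped the most. MRPS35 (chr12:27863765-27909228, plus strand) encodes a protein of the head of the subunit. It was at 135, 131 and 142 CPM in the controls and at 61.4, 79.9 and 67.0 CPM with GLCC1 siRNA, a log2 fold change of -0.97 ± 0.10 (SE; edgeR adjusted p = 9.5e-06). MRPS23 (chr17:55912142-55927405, minus strand) had 72.1, 70.2 and 72.3 CPM in the controls and 44.1, 45.1 and 43.2 CPM with GLCC1 siRNA, a log2 fold change of -0.70 ± 0.08 (SE; edgeR adjusted p = 3.2e-05). The replicates of MRPS23 lay close together, and neither gene's groups overlapped.

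The MRPS18 paralogues, 3 genes that descend from 1 bacterial gene, differed in their calls. MRPS18B, which encodes a small-subunit protein, had 91.9, 91.3 and 90.9 CPM in the controls and 62.1, 55 and 63.0 CPM with GLCC1 siRNA, a log2 fold change of -0.60 ± 0.09 (SE; edgeR adjusted p = 0.00014). MRPS18A, the large-subunit paralogue, had 33.3, 36 and 40.2 CPM against 25.9, 23.8 and 30.8 CPM, a log2 fold change of -0.44 ± 0.12 (SE; edgeR adjusted p = 0.01). Without control siRNA replicate 3 it was no longer called (edgeR adjusted p = 0.077), and 60.6% of its exonic bases are shared with RSPH9. MRPS18C had 12.7, 12 and 14.5 CPM against 13.1, 12.1 and 11.4 CPM, with overlapping groups and a log2 fold change of -0.09 ± 0.12 (SE; edgeR adjusted p = 0.6), which turned to 0.03 with library totals alone. The difference in response between the paralogues was not tested.

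With all 6 libraries in the fit, edgeR called 3 genes higher. MRPS25 (chr3:15090019-15106822, minus strand), another small-subunit protein, had 96.6, 90.2 and 93.8 CPM in the controls and 127, 129 and 121 CPM with GLCC1 siRNA. The log2 fold change was 0.43 ± 0.08 (SE; edgeR adjusted p = 0.0011), and the lowest GLCC1 siRNA library stood well above the highest control. MRPL22 (chr5:154320633-154348971, plus strand), which lines the exit tunnel, had 44.4, 43.9 and 43.1 CPM against 54.4, 58.1 and 48.7 CPM, a log2 fold change of 0.29 ± 0.09 (SE; edgeR adjusted p = 0.029). Its call was lost when GLCC1 siRNA replicate 1 or any of the 3 control libraries was left out (highest edgeR adjusted p = 0.12). MRPL53 reached 0.66 ± 0.24 (SE; edgeR adjusted p = 0.046) at only 2.09 ± 0.331 and 3.38 ± 0.857 CPM (SD, n = 3 each), and shares 99.2% of its exonic bases with CCDC142. Its call was lost on leaving out any library but GLCC1 siRNA replicate 1.

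Levels between genes were compared per length of the canonical transcript, which need not be the one these cells make. MRPL42, for example, averaged 97.5 CPM but only 6.26 CPM per kilobase. Of the 15557 bases of its canonical transcript, 14993 are 3′ UTR. The median over the tested genes was 39.5 CPM per kilobase in the controls and 30.5 CPM per kilobase with GLCC1 siRNA. MRPL3, a protein near the peptidyl transferase centre, was the most abundant at 121 ± 5.05 CPM per kilobase in the controls and 78.9 ± 5.66 with GLCC1 siRNA (SD, n = 3 each). Its level in CPM fell from 210, 196 and 212 to 130, 146 and 128, a log2 fold change of -0.61 ± 0.08 (SE; edgeR adjusted p = 8.7e-05). MRPL20, an early assembling protein of the large subunit, stood at 103 ± 7.71 CPM per kilobase in the controls and 92.0 ± 8.24 with GLCC1 siRNA (SD, n = 3 each; edgeR adjusted p = 0.23), and MRPL37 at 108 ± 1.06 and 84.6 ± 6.96 (SD, n = 3 each; edgeR adjusted p = 0.0058). In the controls, MRPL41 at 116 ± 7.75 and MRPL23 at 110 ± 7.22 CPM per kilobase (SD, n = 3 each) stood between MRPL3 and MRPL37, and each of these 5 genes differed from the next in the order by less than the larger of their SDs. The call of MRPL37 was lost with library totals alone (edgeR adjusted p = 0.051).

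At the low end, MRPL12 had 5.98 ± 0.234 CPM per kilobase in the controls, MRPL53 had 4.21 ± 0.668, MRPL38 had 2.64 ± 0.0975 and MRPS24 had 0.494 ± 0.108 (SD, n = 3 each). In this order each gene differed from the next by more than their SDs. MRPL12, MRPL38 and MRPS24 were not called, and the log2 fold changes of MRPL38 (-0.09) and MRPS24 (-0.01) turned positive with library totals alone (0.03 and 0.11). MRPS24 was counted with as few as 4 read pairs in a library and shares 90.9% of its exonic bases with the read-through gene URGCP-MRPS24. The counting method drops read pairs that fall on more than 1 gene, so the levels of such genes are uncertain. MRPL30 had at most 0.137 CPM in any library and was not tested.

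**Figure D1:**
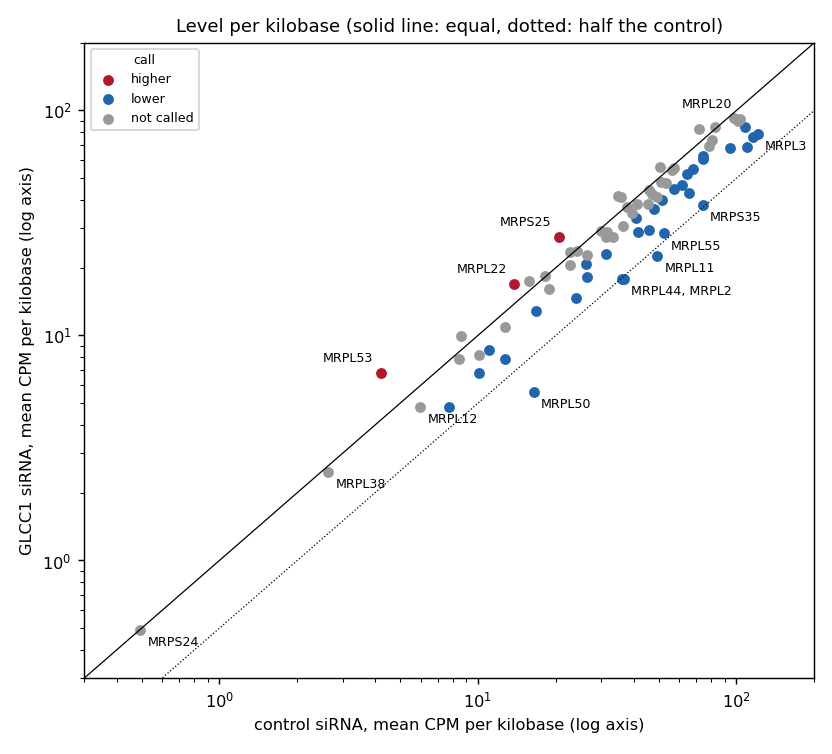
Mean CPM per kilobase in control siRNA (horizontal log axis) and GLCC1 siRNA (vertical log axis) libraries is plotted for the 75 tested genes, with blue for genes called lower, red for higher and grey for not called. Most points lie below the solid line of equal levels; MRPL3 is highest at 121 CPM per kilobase in the controls, MRPS24 lowest at 0.494, and MRPL50 lies below the dotted line of a halved level.

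In all, 15 of the 76 genes share exonic bases with another gene, 5 of them at least 25% (MRPL53, MRPS18A, MRPS22, MRPS24 and MRPS34). Without these 5, 30 of 70 genes were called lower and 2 higher, with a median log2 fold change of -0.23. Few read pairs were counted on pseudogenes. Pairs that map to several places were dropped, so these counts cannot show reads shared by a gene and its pseudogene. The pseudogenes of MRPL45 held 6.53% as many read pairs as the gene itself and those of MRPS31 4.9%, and all others less.

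Genes with and genes without the ETS or YY1 word were both found among those called lower. Among genes whose promoter held the ETS word, 10 of 27 were called lower (median log2 fold change -0.17), and among the matched genes without it 19 of 39 (median -0.30). For the YY1 word, 8 of 20 were called lower with it (median -0.21) and 21 of 46 without (median -0.23). The NRF1 motif lay in 7 of the 67 promoters (10.4%, beside 6.28% of all promoters and 12.8% of those of genes of at least 10 CPM). With all 6 libraries, none of the 6 tested genes with it was called in either direction (median 0.035), whereas 29 of 60 without it were called lower (median -0.29). Without GLCC1 siRNA replicate 2, MRPL17, MRPL36 and MRPS33 of these genes with the motif were called higher, and MRPL45 and MRPS9 lower. MRPL17, MRPL36 and MRPS33 were also called higher with library totals alone (edgeR adjusted p = 0.028, 0.0086 and 0.016). The E-box CACGTG, a word read by MYC, lay in 6 promoters (8.96%, beside 7.43% and 10.9%), of which 1 gene was called lower and 1 higher. These are counts without a test, over genes chosen with results known, and genes of the windows printed above fell on both sides: MRPL50 was called lower and MRPL22 higher with the same YY1 word.

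Of the factors that read these words, MYC was called lower at 149 ± 7.76 and 106 ± 15.4 CPM (SD, n = 3 each), a log2 fold change of -0.48 ± 0.10 (SE; edgeR adjusted p = 0.003). NRF1 was at 22.5 ± 1.27 and 18.5 ± 1.08 CPM (SD, n = 3 each) and was not called (edgeR adjusted p = 0.053), except without GLCC1 siRNA replicate 2. GABPA was at 59.8, 55.9 and 59.1 CPM in the controls and 52.9, 74.9 and 50.1 CPM with GLCC1 siRNA (edgeR adjusted p = 0.92), so that replicate 2 lay above and the other two below every control. Without GLCC1 siRNA replicate 2 it was called lower, at a log2 fold change of -0.17. YY1 was at 258 ± 1.38 and 258 ± 5.85 CPM (SD, n = 3 each; edgeR adjusted p = 1.0). Of the 9 regulators listed, which also include GABPB1, ESRRA, PPARGC1A, PPARGC1B and PPRC1, MYC alone was called with all 6 libraries, and it was called whichever library was left out. PPARGC1B was called higher without GLCC1 siRNA replicate 2 (log2 fold change 0.30) and with library totals alone (0.37, edgeR adjusted p = 0.018).

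Mitochondrial ribosomal protein genes often share a start region with a gene read in the other direction. Within 1000 bases of the start site, 25 of the 76 genes (32.9%) had such a neighbour, beside 11.6% of 13653 protein-coding genes tested. The share among genes of at least 10 CPM, the nearer background, was not counted. The median log2 fold change was -0.29 for members with a neighbour and -0.21 for those without. In 11 of the 21 pairs in which both genes were tested the member was called lower, and of these 11 neighbours 4 were called lower and 1 higher. Among all genes of at least 10 CPM, 29.8% were called lower and 20.1% higher. Neighbours of members that were not called were called as well, with PSMA2, FAU and APBA3 lower and NDUFB5 and NCAPD2 higher. Whether members and neighbours changed together was not tested. MRPL50 moved against its neighbour ZNF189, a zinc finger gene whose start site lies 233 bases away and whose log2 fold change was 0.96 (edgeR adjusted p = 1.3e-05). MRPL2 and KLC4, a kinesin light chain gene 197 bases away, both dropped, the latter by 0.54 on the log2 scale (edgeR adjusted p = 0.0037). MRPL18 dropped slightly beside TCP1, a chaperonin subunit gene with a log2 fold change of -1.51 (edgeR adjusted p = 1.1e-07). MRPL32, at 0.04 (edgeR adjusted p = 0.76), was not called beside PSMA2, a proteasome subunit gene at -1.03 (edgeR adjusted p = 6.7e-07). MRPL46 and MRPS11 form a pair of their own, with start sites 320 bases apart and log2 fold changes of -0.31 (edgeR adjusted p = 0.091) and -0.35 (edgeR adjusted p = 0.017).

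An siRNA can also act on mRNAs that pair with bases 2 to 8 of its guide strand, the seed. The stretch of GLCC1 to which siRNA 1 of the study pairs is given here 5′ to 3′, as in the transcript sequence supplied with the study, with the bases that pair with the start of the guide in capitals.
GLCC1, siRNA 1: ggaagagcaacACCTTGAA

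Of the words used, ACCTTGA pairs with bases 2 to 8 of the guide and CCTTGAA with its first 7 bases. Both were looked for in the 3′ UTRs of the canonical transcripts, whether or not the cells make these in full. They lay in 8 of the 75 tested genes (10.7%), beside 22.1% of genes of at least 10 CPM. The longest pairings, 8 bases, were in MRPS35, MRPS33 and MRPL42, and MRPS25 is shown as the gene with a word that rose (GRCh37, strand of the gene, matched bases in capitals).
MRPS35, chr12:27909056-27909077, plus strand: cataacgACCTTGAAtgtaatt
MRPS33, chr7:140705133-140705154, minus strand: aagctgaACCTTGAAgaataaa
MRPL42, chr12:93907045-93907066, plus strand: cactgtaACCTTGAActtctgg
MRPS25, chr3:15092066-15092087, minus strand: agtcttgACCTTGAtaccacct

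Of the 8 genes with a word, MRPS35, MRPL42 and MRPL19 were called lower (37.5%) and MRPS25 higher (12.5%). MRPL19, MRPL24 and MRPS14 hold CCTTGAA alone, which leaves out the last base of the seed. The median log2 fold change of the 8 was -0.07. Of the 67 without, 29 were called lower (43.3%) and 2 higher (2.99%), with a median of -0.24. MRPL50, MRPL11, MRPL44 and MRPL2 hold no such word. The 3′ UTRs with a word were longer, with a median of 2911 bases against 403. Among genes of at least 10 CPM the order was the other way round, with a median of -0.17 with a word and -0.05 without. Of these genes, 40.3% with a word were called lower and 16.5% higher, beside 26.8% and 21.2% without. Their 3′ UTRs differed in length too, with a median of 3088 bases with a word and 1102 without. The part of UTR length in these counts was not tested. Since the genotype field reads siRNA1 for the controls too, it is not certain that siRNA 1 of the study was used, and pairing with siRNA 2 was not examined.

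The rRNAs with which these proteins assemble also had lower read counts. Whether the library preparation selected against rRNA was not examined, so these counts may not follow the amount of rRNA in the cells. MT-RNR1, the rRNA of the small subunit, fell from 486 ± 28.3 to 326 ± 43.8 CPM (SD, n = 3 each), a log2 fold change of -0.58 ± 0.10 (SE; edgeR adjusted p = 0.00051). MT-RNR2, that of the large subunit, fell from 3320 ± 156 to 2480 ± 125 CPM (SD, n = 3 each), a log2 fold change of -0.42 ± 0.07 (SE; edgeR adjusted p = 0.0007). Groups did not overlap for either. Of 7 mitochondrial ribosomal proteins that go by other names, AURKAIP1 (-0.58, edgeR adjusted p = 0.0023) and GADD45GIP1 (-0.26, edgeR adjusted p = 0.048) were called lower and none higher. That share was 28.6%, beside 29.8% of genes averaging 10 CPM or more, and the median log2 fold change of the 7 was -0.12. The call of GADD45GIP1 was lost without GLCC1 siRNA replicate 1 or any control library.

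Genes that build or use the ribosome were called lower in shares between 23.5% and 43.8% of a list, beside 29.8% of all genes averaging 10 CPM or more, so that the shares lay on both sides of the background. Of 23 assembly factors, 6 were called lower and 1 higher (median log2 fold change -0.10). ERAL1, the chaperone of the small-subunit rRNA, fell from 64.4, 61.5 and 65.5 CPM to 19.2, 23.0 and 24.5 CPM, a log2 fold change of -1.52 ± 0.11 (SE; edgeR adjusted p = 3.2e-07). RPUSD4, a pseudouridine synthase of the large-subunit rRNA, was the assembly factor that rose (0.35 ± 0.11, SE; edgeR adjusted p = 0.028), a call that was lost on leaving out any library but GLCC1 siRNA replicate 2. Without control siRNA replicate 3, 3 assembly factors were called lower.

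Of 16 translation factors, 7 were called lower and none higher (median -0.26). TSFM, the exchange factor of the elongation factor TUFM, fell from 24.1 ± 1.02 to 12 ± 0.768 CPM (SD, n = 3 each), a log2 fold change of -1.01 ± 0.11 (SE; edgeR adjusted p = 1.1e-05), and TUFM, TACO1, GFM1, MRRF, LRPPRC and OXA1L were the others called lower. Of 17 mitochondrial aminoacyl-tRNA synthetases, which charge the tRNAs, 4 were called lower and none higher (median -0.03). The largest fall was that of WARS2, the tryptophan enzyme (-0.52 ± 0.12, SE; edgeR adjusted p = 0.0045). Without GLCC1 siRNA replicate 2, 7 synthetases were called lower.

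Of 12 tested genes of mitochondrial transcription and RNA processing, 4 were called lower and 2 higher (median -0.25), and 8 were lower without GLCC1 siRNA replicate 2. HSD17B10, which is also a subunit of mitochondrial ribonuclease P, fell from 85.4 ± 3.77 to 39.2 ± 6.10 CPM (SD, n = 3 each), a log2 fold change of -1.12 ± 0.11 (SE; edgeR adjusted p = 6.2e-06). PNPT1, the polynucleotide phosphorylase that degrades mitochondrial RNA, rose from 176 ± 9.26 to 270 ± 32.6 CPM (SD, n = 3 each), a log2 fold change of 0.62 ± 0.10 (SE; edgeR adjusted p = 0.00026). The difference between any of these lists and the ribosomal protein genes was not tested.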

How the data were processed

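The authors deposited raw read pair counts per gene symbol for each library, whole numbers without normalization. Per the study's methods and the submitters' processing notes, paired reads were mapped to hg19 with TopHat 2.0.11 and counted with HTSeq in union mode, which drops pairs that fall on several genes or map to several places. The kit does not mark strand. Between 8.191% and 8.894% of pairs were ambiguous, and 11.21% to 11.54% (control) or 12.49% to 14.24% (GLCC1 siRNA) fell on no gene, and neither entered library sizes.

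Genes with fewer than 5 summed counts in both conditions were removed, and 23074 were tested. The main test was the robust quasi-likelihood fit of edgeR 4.0.16 with TMM factors (0.9503 to 1.052) in R 4.3.3, Benjamini-Hochberg adjusted over all genes. The SE of a log2 fold change was derived from its F statistic. DESeq2 1.42.0 was an alternative. Positions, transcripts and 3′ UTRs come from GENCODE 44 lifted to GRCh37.

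The members and lists were chosen with earlier results of these data known. Values are named for the 8 largest rises and falls among called members of at least 10 CPM (only 2 rose), the MRPS18 and stalk genes, the 3 highest and lowest per length, members not tested, and in other lists the largest called rise and fall, the rRNAs, NRF1, GABPA, YY1 and MYC. The other genes with values were chosen after their values were seen. Same-numbered libraries did not deviate together, so no replicate block entered the main fit.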

Additional observations from a re-analysis of the deposited data

How the results depend on the processing

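The median log2 fold change of the members was negative under each of the 12 alternatives that refit it, between -0.26 and -0.11, the latter with library totals alone, where all genes shifted by 0.12. With DESeq2 in place of edgeR 30 members were lower, where 15.5% of all genes were lower. With library totals alone the lower and higher counts were 21 and 9 over the members, 7 and 4 over MRPS, 5 higher over MRPL, and 3 lower over assembly factors. With a filter of 10 counts in every library 6 members were higher, 2 MRPS and 4 MRPL. At an adjusted p under 0.01, 21 members were lower and 1 higher, beside 2675 and 2178 of all 23074 genes tested. Of the 69 members of at least 10 CPM, 21 were lower and 1 higher, beside 2252 and 1485 of the 10378 genes at that level.

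Replicate numbers did not pair the libraries, since deviations of same-numbered libraries correlated at -0.155, -0.288 and -0.00809 over 14875 genes, and no library pair was tied by its labels. With a replicate block 26 members were lower, all among the main 32, where 15.2% of all genes were lower. In that fit 1 MRPL gene was higher, and MRPL22 was no longer called (edgeR adjusted p = 0.076).

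With 1 library left out at a time, between 22 and 41 members were lower and between 1 and 6 higher, where 12.5% to 22.6% of all genes were lower. The counts were 7 to 15 lower and 1 to 2 higher for MRPS and 0 to 4 higher for MRPL. Lower counts ran from 3 to 9 for assembly factors, 3 to 7 for synthetases and 3 to 8 for transcription and RNA processing. Of 239 values of named members under alternatives, 224 kept their direction and side of the threshold. MRPS24 reversed to 0.0053 with DESeq2, to 0.0031 with its size factors, to 0.11 with library totals, and with 1 library left out it ran from -0.12 to 0.22 (0.22 without GLCC1 siRNA replicate 3, 0.17 without control siRNA replicate 1). MRPL38 (0.03) and MRPS18C (0.028) reversed with library totals. The causes were not tested. Genes near the floor of 5 summed counts, such as MRPS24 and MRPL30, are limited by depth.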
